A study of Mus musculus with 9 samples.

Results

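Transcript levels of 10 genes of the integrated stress response were examined in splenic monocytes of C57BL/6 mice whose gut microbiome had been altered with an antibiotic. The genes were chosen by name, for their known place in the response to the transcription factor ATF4, with earlier results of these data known. They were Atf4, Ddit3, Trib3, Asns, Ppp1r15a, Atf5, Sesn2, Chac1, Xbp1 and Nupr1, which made up 10 of the 46072 rows of the deposited gene tables, with 1 row for each symbol. Each gene was followed across all 3 treatment groups, with 3 mice per group.

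All mice were young adult females. The Con group received water by oral gavage for 6 days. The Van group received vancomycin, an antibiotic that is poorly absorbed from the gut, at 2 mg per mouse and day for the same 6 days. The VanLip group received the same vancomycin course together with L654, a serine-glycine lipodipeptide made by gut Bacteroidota and sensed through TLR2, injected behind the eye on days 7, 9 and 11. In every group the gavage was followed by a rest without antibiotic, given as 6 to 8 days in the labels and as 8 days for the sequenced mice in the description of the experiment, after which monocytes were enriched from the spleen by magnetic negative selection and sequenced without stimulation in culture. Comparing Van with Con addressed what the vancomycin and rest protocol left behind in the monocytes, and comparing VanLip with the other groups addressed what the lipid changed. Whether the sequenced Con and Van mice also received vehicle injections was not given in the sources used here, so L654 and the injections themselves cannot be told apart.

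The 9 libraries held between 43070361 and 184720704 expected counts, the counts estimated per gene from transcript coverage. The 3 VanLip libraries stood apart from the other 6 before any gene was compared. The commonest low count in the table was 2.00 in VanLip and 1.33 in Con and Van, which corresponds to reads of 150 and 100 bases. The description deposited with the series gives 100 bases for all libraries. The longer reads of VanLip are inferred from the counts and go against that description. At the inferred lengths the libraries held 42625868 to 46180176 sequenced fragments in VanLip against 16151385 to 23018927 in Con and Van. Since this split coincides with the treatment, read length, depth and L654 cannot be told apart in any comparison that uses VanLip. All 10 monocyte markers examined were present in every group, led by Lyz2 at a mean of 7922 FPKM (fragments mapped, corrected for transcript length and for the size of the library). The 6 neutrophil markers, of which Ly6g alone was at 0 throughout, summed to 2.24 to 3.48 FPKM in Con. They summed to 0.694 to 2.92 in Van and 0.775 to 1.43 in VanLip. Red pulp macrophage markers were also present, led by C1qa at a mean of 265 FPKM and C1qb at 237. The monocyte markers did not all keep their level. Ccr2, a receptor of classical monocytes, measured 173, 163 and 159 FPKM in Con, 70.4, 93 and 98.2 in Van, and 256, 156 and 190.3 in VanLip. It was the 1 marker of the 10 called lower in Van/Con (-0.83 ± 0.18, adjusted p of 0.00048 in DESeq2), beside 2.06% of all genes. In VanLip/Van Ccr2 (1.04 ± 0.18), Cx3cr1 (0.43 ± 0.11) and Ly6c2 (0.39 ± 0.13) were called higher, beside 4.58% of all genes. Their adjusted p-values in DESeq2 were 7.38e-07, 0.00264 and 0.0262. These genes were named after their values were seen, and the part of such a shift in the results was not tested. Fewer cells of a type and less RNA per cell cannot be told apart in bulk samples such as these.

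The integrated stress response is a common answer of cells to amino acid shortage, misfolded protein in the endoplasmic reticulum, viral RNA and heme lack, each of which activates a kinase that phosphorylates the translation factor eIF2. Bulk protein synthesis then slows while the ATF4 message is translated better, and ATF4, usually paired with a C/EBP partner, raises genes for amino acid supply, protein folding, feedback and, under lasting stress, cell death. ATF4 is therefore controlled largely at translation, which transcript levels do not measure. In macrophages and monocytes the response is known for its links with cytokine secretion and survival. The 10 genes cover several tiers. Atf4 and Atf5 encode transcription factors whose messages are translated better under the stress. Ddit3 encodes CHOP, a death-associated factor downstream of ATF4. Xbp1 encodes the factor spliced by IRE1 in the parallel unfolded protein response. Asns, asparagine synthetase, and Chac1, which breaks down glutathione, are enzymes. Sesn2 encodes a leucine sensor that restrains mTORC1, and Nupr1 a small stress-induced chromatin protein. Trib3 encodes a pseudokinase that restrains ATF4 and CHOP, and Ppp1r15a encodes GADD34, the phosphatase subunit that restores eIF2.

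ATF4 is known to act through a composite C/EBP and ATF element, so the start regions of the 10 genes were searched for the letters TGATGNAA or their complement TTNCATCA, in the 250 bases before each RefSeq start on the GRCm38.p6 build. All 10 genes matched a RefSeq start. The letters were found before Asns, Chac1 and Nupr1, which is 3 of 10 genes, and before 3.91% of all 27025 genes in the same table (3.45% of 32851 start regions). Extending the window by 50 bases past the start added Trib3, against 4.51% of all genes. Start here means the RefSeq start, which can differ from the ends of the gene spans given below. The Asns and Nupr1 letters lie inside those spans, whereas the Trib3 letters lie before the span of Trib3. The stricter form with C at the open position, TGATGCAA or TTGCATCA, which lies inside the first motif, was found before Chac1 and Nupr1 and before 0.918% of all genes. The palindromic cyclic AMP element TGACGTCA, which does not overlap the composite element in these genes, was found before Ppp1r15a and before 1.77% of all genes. The endoplasmic reticulum stress element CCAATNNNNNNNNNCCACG was found before none of the 10 genes and before 0.13% of all genes. These matches describe the letters only. The sequences are shown because such elements are what ATF4 and its relatives are known to bind, with the element in capitals, each written 5′ to 3′ on the strand of its gene.
Chac1, chr2:119351009-119351096, plus strand: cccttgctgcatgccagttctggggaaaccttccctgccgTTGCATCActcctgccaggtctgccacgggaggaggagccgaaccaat
Nupr1, chr7:126625562-126625591, minus strand: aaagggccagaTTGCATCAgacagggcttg
Asns, chr6:7693214-7693243, minus strand: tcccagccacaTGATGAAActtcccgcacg
Trib3, chr2:152344033-152344052, minus strand: tcaggtTTACATCAgccggg
Ppp1r15a, chr7:45526269-45526320, minus strand: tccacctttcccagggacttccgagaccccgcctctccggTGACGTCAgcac

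The 10 genes differed widely in level, and those carrying the composite element before their RefSeq start lay at very different heights. Over all 9 libraries, Atf4 averaged 139 FPKM, at the 98.4th percentile of the genes with a value above 0. Xbp1 followed at 125 and Ppp1r15a at 108. Nupr1 averaged 56.3, Ddit3 17.7, Sesn2 6.98 and Atf5 3.43 FPKM. Asns, at 0.537, and Trib3, at 0.273, were below 1 FPKM, and Chac1 was close to absent at 0.0136. Some neighbours in this order were not separated in every library. Atf4 exceeded Xbp1 in 7 of 9 libraries, Xbp1 exceeded Ppp1r15a in 8 of 9, and Asns exceeded Trib3 in 8 of 9. All other neighbours kept their order in each of the 9 libraries. The monocytes thus carried abundant messages for the regulators Atf4, Xbp1 and Ppp1r15a and little message for the enzymes Asns and Chac1 and for Trib3.

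**Figure D1:**
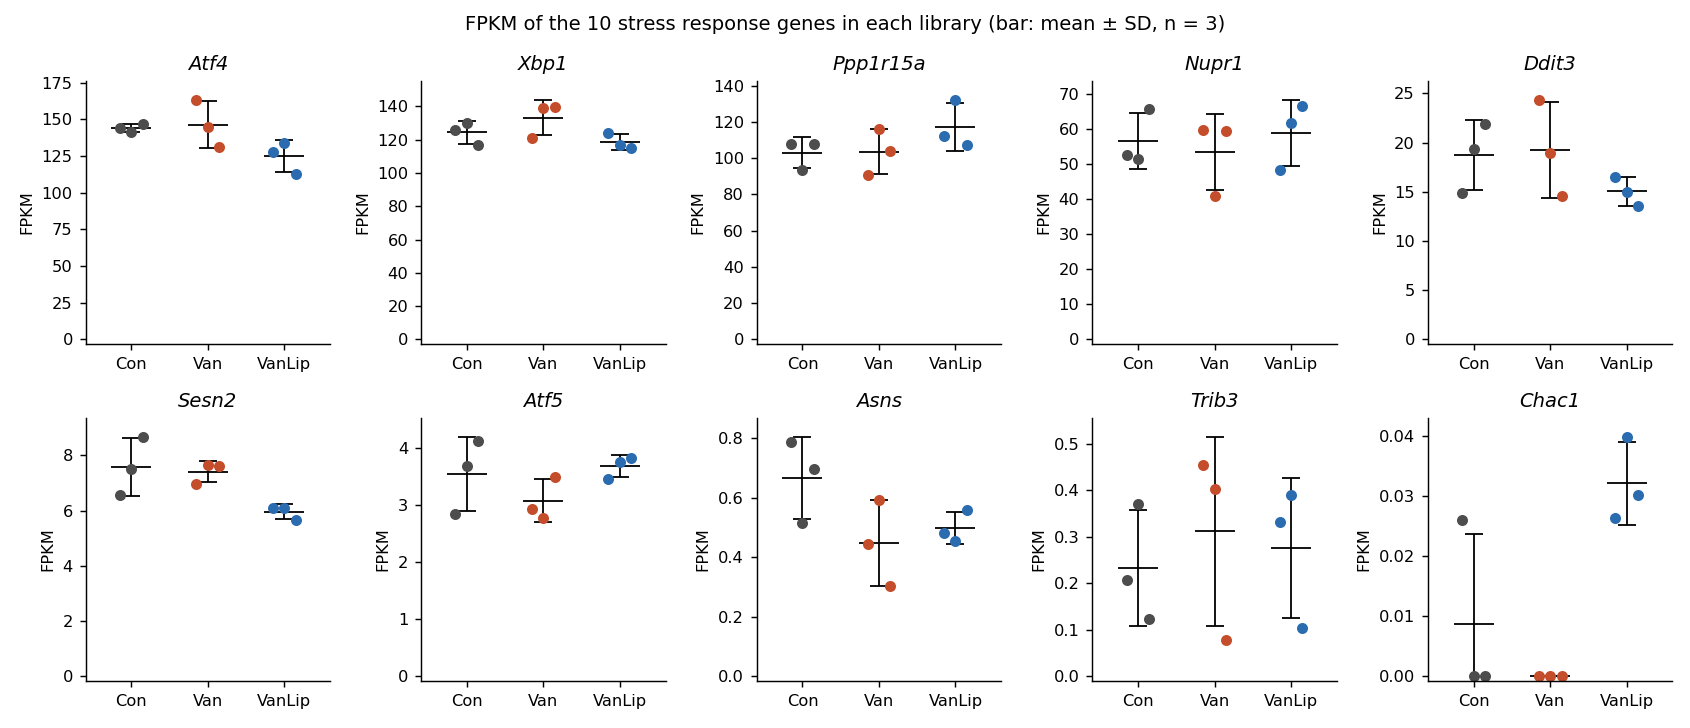
FPKM of the 10 genes in each of the 9 libraries, on a linear axis that differs between panels, with 1 dot per mouse and a bar and whiskers for the mean ± SD of each group (n = 3). The dots of Con, Van and VanLip overlap in most panels, whereas the Sesn2 dots of VanLip, at 5.65 to 6.11 FPKM, lie below all of those in Con and Van.

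Atf4 (ENSMUSG00000042406, chromosome 15, 80255184 to 80257541, plus strand of GRCm38) measured 144, 141 and 147 FPKM in the Con mice. It measured 163, 145 and 131 in the Van mice, and 128, 134 and 113 in the VanLip mice. The Van values surrounded the Con values, whereas every VanLip value lay below every Con value and 1 of them lay above the lowest Van value. Atf5 (chromosome 7, 44812256 to 44816658, minus strand), which is expressed far below Atf4, measured 2.84, 3.68 and 4.12 FPKM in Con, 2.94, 2.78 and 3.5 in Van, and 3.46, 3.75 and 3.83 in VanLip. The 3 groups of Atf5 values overlapped.

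Ddit3 (chromosome 10, 127290774 to 127296288, plus strand), the CHOP gene, varied widely within the Con and Van groups. Its level was 14.9, 19.3 and 21.9 FPKM in Con, 24.3, 18.9 and 14.6 in Van, and 16.5, 15 and 13.6 in VanLip. The Van mice spanned both the highest and almost the lowest Ddit3 value of the study. Trib3 (chromosome 2, 152337422 to 152344032, minus strand) had low and scattered values of 0.206, 0.369 and 0.122 FPKM in Con, 0.453, 0.402 and 0.0781 in Van, and 0.331, 0.39 and 0.104 in VanLip. The Trib3 values of each group spanned a wider range than the group means did.

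Ppp1r15a (chromosome 7, 45522916 to 45526268, minus strand), which encodes the feedback subunit GADD34, measured 108, 93.3 and 108 FPKM in Con, 90.9, 116 and 104 in Van, and 112, 132 and 107 in VanLip. Xbp1 (chromosome 11, 5520659 to 5525893, plus strand) measured 126, 130.3 and 117 FPKM in Con, 121, 139 and 139.6 in Van, and 124, 117 and 115 in VanLip. Both groups of treated mice overlapped the Con mice for these abundant genes. The files give gene totals, so the spliced and unspliced forms of Xbp1 were not analysed here.

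Among the remaining effectors, Asns (chromosome 6, 7675169 to 7693254, minus strand) measured 0.788, 0.516 and 0.696 FPKM in Con, 0.446, 0.592 and 0.302 in Van, and 0.483, 0.453 and 0.56 in VanLip. Nupr1 (chromosome 7, 126623249 to 126630861, minus strand) measured 52.5, 51.6 and 65.9 FPKM in Con, 59.9, 41 and 59.5 in Van, and 48.4, 61.8 and 66.5 in VanLip. Neither gene separated the groups. Chac1 (chromosome 2, 119351229 to 119354381, plus strand) was listed at 0.026, 0 and 0 FPKM in Con, at 0 in all 3 Van mice, and at 0.0263, 0.0398 and 0.0301 in VanLip. These Chac1 values stand for 1, 0 and 0 fragments in Con, none in Van, and 2.28, 3.33 and 2.78 in VanLip, whose libraries were the deepest, so no fold is given.

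Some of these genes share exonic bases with neighbours. Ddit3 shares 68 exonic bases with Mars on the opposite strand, which averaged 10.8 FPKM. A second protein-coding record of Ddit3 shares 105 with it on the same strand and has no level in these data. Atf5 shares 82 with Il4i1, on the opposite strand at 16.5 FPKM, and 82 with Nup62, also on the opposite strand. Ppp1r15a shares 12 with Tulp2. The library kit keeps strand, but whether the counting used it was not given in the sources used here. The values of Ddit3 and Atf5 are therefore the less certain ones.

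The first comparison asked whether the vancomycin and rest protocol left these genes altered (Van/Con). None of the 10 genes was called. Across all genes, 803 of 18526 passed an adjusted p of 0.05 in DESeq2, which is 4.33%, with 421 higher (2.27%) and 382 lower (2.06%) in Van. Among the 10 genes, 9 had enough counts for an adjusted p, and Chac1 did not. None of these 9 passed, a share that lies near the background for so few genes, none reached an unadjusted p under 0.05 (14.9% of all genes did), and edgeR and limma also called none. In no gene of the 10 were the Van and Con mice free of overlap in normalized counts, as they were in 20.8% of all genes. The fold changes were above 0 for 4 genes and below 0 for 5 on the log2 scale, with a median of 0.00 beside -0.01 over all genes tested.

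For the abundant genes the Van/Con difference was bounded closely. The log2 fold change of Atf4 was 0.01 ± 0.10 (SE), with a 95% interval from -0.18 to 0.21 and an adjusted p of 0.984. Ppp1r15a had a log2 fold change of 0.00 ± 0.11, with an interval from -0.21 to 0.21. Sesn2, at -0.04 ± 0.11, had an interval from -0.25 to 0.17. For these 3 regulators, changes of more than about these bounds lie outside the 95% intervals. Xbp1 was at 0.11 ± 0.08 (interval -0.05 to 0.27) and Nupr1 at -0.11 ± 0.11 (interval -0.33 to 0.10). The intervals were wider for Ddit3, from -0.35 to 0.41, and Atf5, from -0.53 to 0.10. They were too wide to be informative for the scarce messages of Asns, from -0.92 to 0.37, and Trib3, from -0.92 to 1.87.

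**Figure D2:**
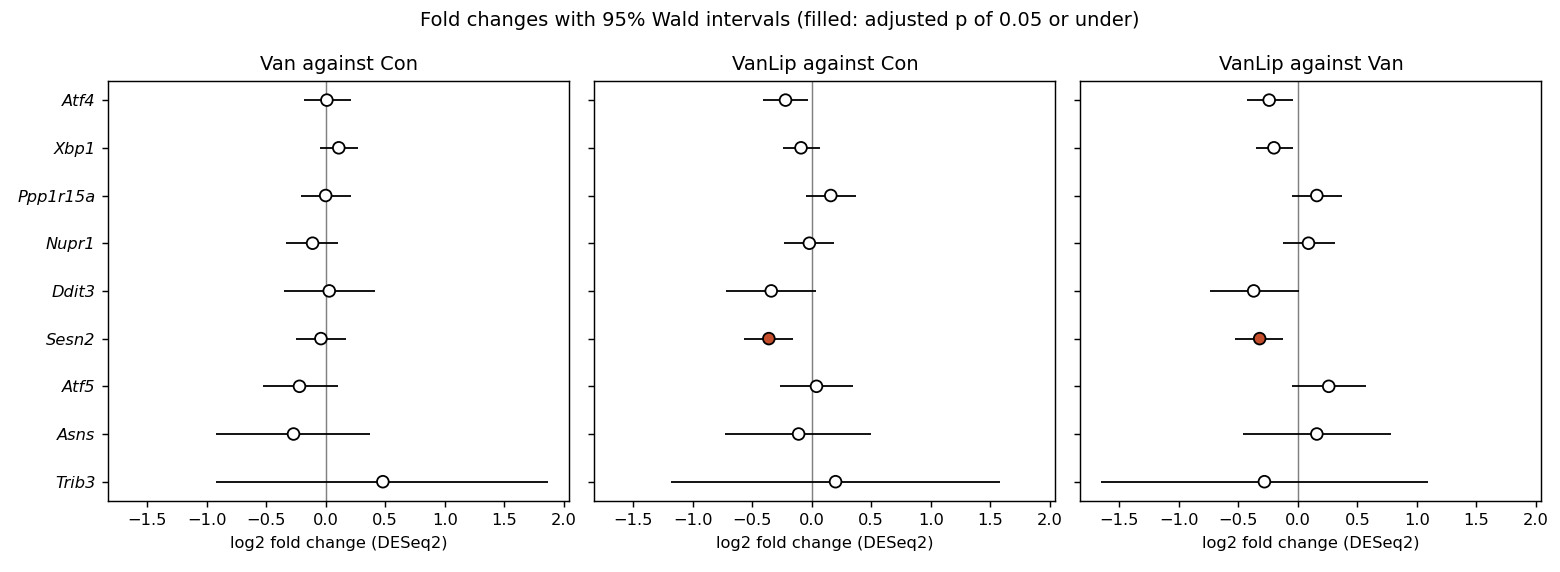
Log2 fold change of normalized counts (x axis) of the 9 genes with an adjusted p in the 3 comparisons, with horizontal bars for the 95% interval from DESeq2 and filled points for an adjusted p of 0.05 or under. The filled points are those of Sesn2 in VanLip/Con at -0.36 and in VanLip/Van at -0.32.

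The second comparison set mice that had received vancomycin and L654 against the water controls (VanLip/Con). Sesn2, the leucine sensor gene, was lower in VanLip, and no other of the 10 genes passed. In this comparison 1105 of 16565 genes passed, or 6.67%, with 494 higher (2.98%) and 611 lower (3.69%). Of the 9 testable genes 1 passed. An unadjusted p under 0.05 was reached by 18.6% of all genes and by 2 of the 9, Atf4 and Sesn2. Those same genes lay lower in VanLip with no overlap between the groups in normalized counts, as did 11.3% of all genes, and 23.5% of all genes lacked overlap in either direction. The median log2 fold change of the 9 genes was -0.09 beside 0.01 over all genes tested.

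Sesn2 (ENSMUSG00000028893, chromosome 4, 132492032 to 132510501, minus strand) measured 6.56, 7.49 and 8.67 FPKM in the Con mice. It measured 6.98, 7.65 and 7.6 in the Van mice and 6.11, 6.11 and 5.65 in the VanLip mice. All 3 VanLip values lay below all 6 other values, the closest being the Con mouse at 6.56 against the VanLip mice at 6.11. Mean normalized counts were 2518 ± 318 for Con mice, 2448 ± 102 for Van mice and 1958 ± 93.2 for VanLip mice (SD, n = 3). The log2 fold change was -0.36 ± 0.10 in VanLip/Con, a decrease to 0.778 of the Con level, with an interval from -0.57 to -0.16 and an adjusted p of 0.0134 in DESeq2.

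This call was close to the threshold and rested on particular libraries. Without Con replicate 2 the adjusted p was 0.0779, without Con replicate 3 it was 0.124, without VanLip replicate 2 it was 0.0612 and without VanLip replicate 3 it was 0.0686. The value itself stayed between -0.45 and -0.27 when each library was left out in turn. With edgeR the adjusted p was 0.0957, and with limma on FPKM it was 0.104 to 0.191, whereas after thinning all libraries to equal numbers of fragments the change was -0.38 with an adjusted p of 0.0215.

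Atf4 had the next clearest difference, at -0.22 ± 0.10 on the log2 scale in VanLip/Con, with an interval from -0.41 to -0.03, and it did not pass (adjusted p of 0.174 in DESeq2). Ddit3 was at -0.34 ± 0.19, with an interval from -0.72 to 0.04 and an adjusted p of 0.333. The feedback gene Ppp1r15a, at 0.16 ± 0.11, had an interval from -0.05 to 0.37. Xbp1 (-0.09), Nupr1 (-0.02), Atf5 (0.04), Asns (-0.11) and Trib3 (0.20) had adjusted p-values from 0.621 to 0.955.

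The third comparison asked what L654 changed in mice that had all received vancomycin (VanLip/Van). Sesn2 was again the gene that passed, and was lower in VanLip. Here 1777 of 18035 genes passed, which is 9.85%, with 826 higher (4.58%) and 951 lower (5.27%), and 1 of the 9 testable genes was among them. An unadjusted p under 0.05 was reached by 20.9% of all genes and by 3 of the 9, Atf4, Sesn2 and Xbp1. The VanLip libraries enter both of their comparisons, so the Sesn2 results are not independent of each other. In normalized counts 25.9% of all genes lacked overlap between the groups and 12.8% did so with VanLip lower, and among the 9 testable genes these were Sesn2 and Xbp1, both lower in VanLip. The median log2 fold change of the 9 genes was -0.20 beside 0.01 over all genes tested.

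The Sesn2 change in VanLip/Van was -0.32 ± 0.10 on the log2 scale, to 0.8 of the Van level, with an interval from -0.53 to -0.12 and an adjusted p of 0.0258. It was lost without Van replicate 1 (0.0527), Van replicate 2 (0.129), Van replicate 3 (0.127), VanLip replicate 2 (0.0743) or VanLip replicate 3 (0.112), all adjusted p-values from DESeq2, while the value stayed between -0.36 and -0.28. With edgeR the adjusted p was 0.0892 and with limma 0.106 to 0.195, and with thinned fragments it was 0.0329.

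Xbp1 was at -0.20 ± 0.08 in VanLip/Van, with an interval from -0.35 to -0.04 and an adjusted p of 0.099. It passed without Van replicate 1, at -0.25 and an adjusted p of 0.0416. Atf4, at -0.24 ± 0.10, had an interval from -0.43 to -0.04 and an adjusted p of 0.114, and passed without Van replicate 3, at -0.30 and an adjusted p of 0.04. Removing Van replicate 1 instead brought Atf4 to -0.14. The CHOP gene Ddit3 was at -0.37 ± 0.19, with an interval from -0.74 to 0.01, and ran from -0.53 without Van replicate 3 to -0.15 without Van replicate 1. Atf5 (0.26), Ppp1r15a (0.16), Nupr1 (0.09), Asns (0.16) and Trib3 (-0.28) had adjusted p-values from 0.358 to 0.899.

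The wider pathway was read from 92 further genes in 7 lists, drawn up by known function with earlier results of these data known. They include the eIF2 kinases and their translation factors, enzymes and transporters of amino acids, tRNA synthetases and other ATF4 and CHOP targets. The IRE1 and ATF6 arms of the unfolded protein response and relatives of the 10 genes make up the rest. No set test was run on these lists. In Van/Con 10 of the 86 genes with an adjusted p passed, or 11.6% beside 4.33% of all genes, and all 10 were higher in Van. In VanLip/Con 7 of 85 passed, or 8.24% beside 6.67%, with 1 higher and 6 lower. In VanLip/Van 14 of 85 passed, or 16.5% beside 9.85%, and all 14 were lower in VanLip. The Van libraries enter the first and the last of these comparisons with opposite sign, so their directions are tied.

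**Figure D3:**
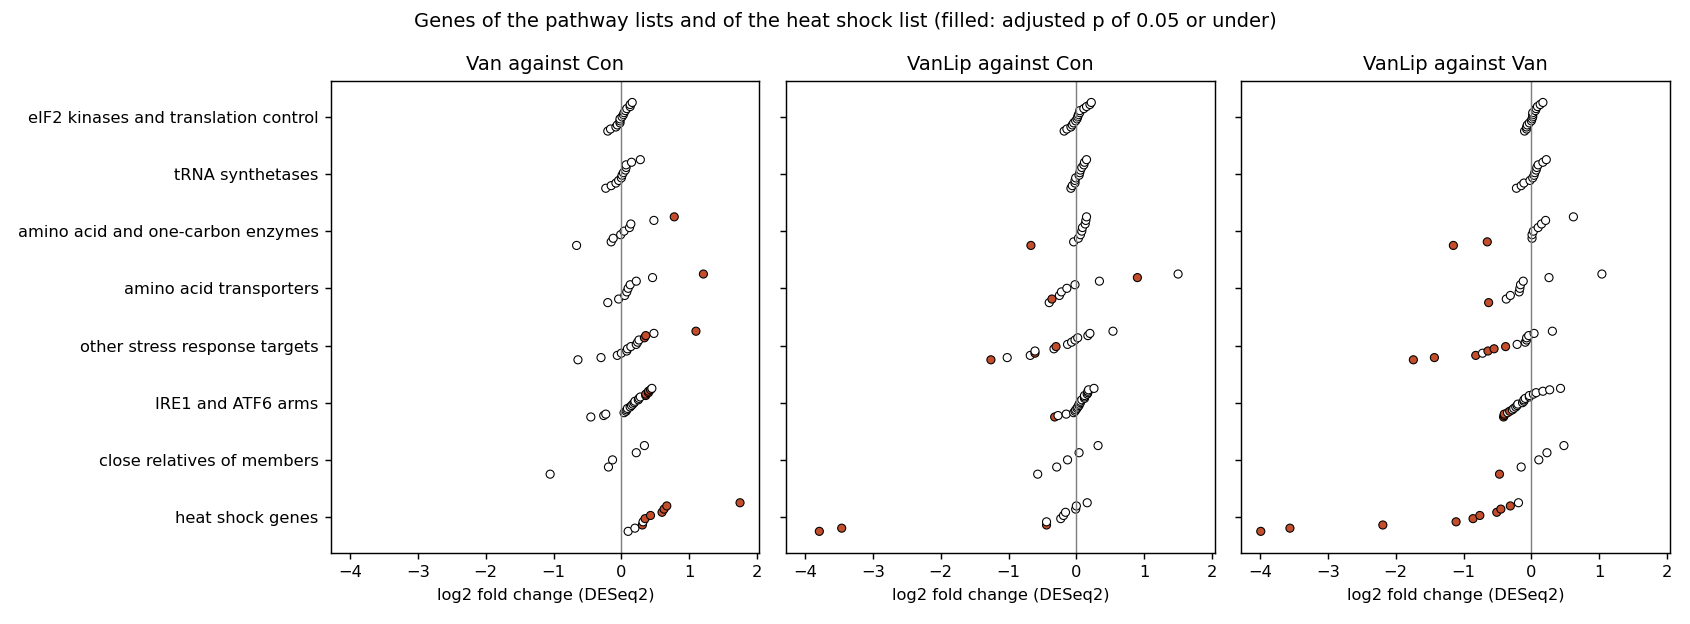
Log2 fold change of normalized counts (x axis) for each gene of the 7 pathway lists and of the heat shock list (rows), with 1 dot per gene and filled dots for an adjusted p of 0.05 or under in DESeq2. Only genes with an adjusted p and a mean of at least 10 normalized counts in 1 of the groups compared are drawn, and the filled pathway dots lie above 0 in Van/Con and below 0 in VanLip/Van.

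Few genes of the amino acid and upstream lists were called. In Van/Con 1 of 9 testable enzyme genes and 1 of 9 transporter genes passed, beside 4.33% of all genes, in VanLip/Con 1 and 2, beside 6.67%, and in VanLip/Van 2 and 1, beside 9.85%. For lists this short, such counts are near the background share. None of the 15 genes for eIF2 kinases and translation control and none of the 12 tRNA synthetase genes passed in any of the 3 comparisons, which is near it as well. In Van/Con, 1 eIF2 gene and 3 synthetase genes reached an unadjusted p under 0.05, in VanLip/Con 1 and 1, and in VanLip/Van 0 and 2. Slc1a4, which encodes a neutral amino acid transporter, measured 0.148, 0.158 and 0.187 FPKM in Con, 0.364, 0.325 and 0.451 in Van, and 0.27, 0.322 and 0.336 in VanLip. It was higher in Van (1.21 ± 0.28, adjusted p of 0.00108) and in VanLip (0.90 ± 0.27, adjusted p of 0.0186) than in Con. Both treated groups therefore lay above the control mice for this scarce transporter message. Slc38a2, another amino acid transporter gene induced by ATF4, was lower in VanLip/Con by contrast (-0.36 ± 0.09, adjusted p of 0.00554), at 29.1, 27.9 and 29.4 FPKM against 41.4, 32.3 and 35.6 in Con. Gpt2, an alanine aminotransferase gene, was higher in Van/Con, at 0.78 ± 0.22 and an adjusted p of 0.0163.

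Among the other ATF4 and CHOP targets, 3 of 15 testable genes passed in Van/Con (20% beside 4.33% of all genes), 3 of 14 in VanLip/Con (21.4% beside 6.67%) and 6 of 14 in VanLip/Van (42.9% beside 9.85%). Jdp2, a bZIP repressor of the AP-1 family that can pair with CHOP and ATF3, measured 8.2, 10 and 10.4 FPKM in Con, 22.4, 19.1 and 20.4 in Van, and 9.36, 7.77 and 5.98 in VanLip. Its log2 fold change was 1.10 ± 0.17 in Van/Con (adjusted p of 1.94e-08) and -1.43 ± 0.16 in VanLip/Van (adjusted p of 1.11e-15). The Van mice thus stood above both other groups without overlap. Cebpg encodes a C/EBP protein that pairs with ATF4, and its level was 14.8, 17 and 15.9 FPKM in Con, 19, 20 and 21.3 in Van, and 12.2, 12.7 and 14 in VanLip. It was higher in Van/Con at 0.34 ± 0.09 (adjusted p of 0.00512) and lower in VanLip/Con at -0.30 ± 0.09 (adjusted p of 0.013). The 3 groups of Cebpg values did not overlap, and VanLip/Van gave -0.64 ± 0.09 (adjusted p of 2.13e-11).

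Atf3, an abundant early stress factor induced by ATF4, was level between Con (348, 433 and 378 FPKM) and Van (389, 357 and 371) and lower in VanLip (273, 254 and 239.6). The log2 fold change was -0.61 ± 0.10 in VanLip/Con and -0.55 ± 0.10 in VanLip/Van, with adjusted p-values of 4.96e-08 and 1.01e-06. Ddit4, which encodes the mTORC1 inhibitor REDD1, measured 25.5, 50 and 41.5 FPKM in Con, 52.7, 49 and 62.8 in Van, and 8.89, 16.9 and 23.8 in VanLip. All VanLip mice lay below all others for Ddit4, which is also induced by glucocorticoids and hypoxia. Its change was -1.26 ± 0.38 in VanLip/Con (adjusted p of 0.023) and -1.74 ± 0.38 in VanLip/Van (adjusted p of 0.000245). Got1, an aspartate aminotransferase gene of the amino acid enzyme list, measured 13.1, 11 and 9.89 FPKM in Con, 17.4, 13.4 and 14 in Van, and 9.4, 5.92 and 5.58 in VanLip. It was lower in VanLip/Con at -0.67 ± 0.18 (adjusted p of 0.00811) and in VanLip/Van at -1.15 ± 0.18 (adjusted p of 3.2e-08).

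**Figure D4:**
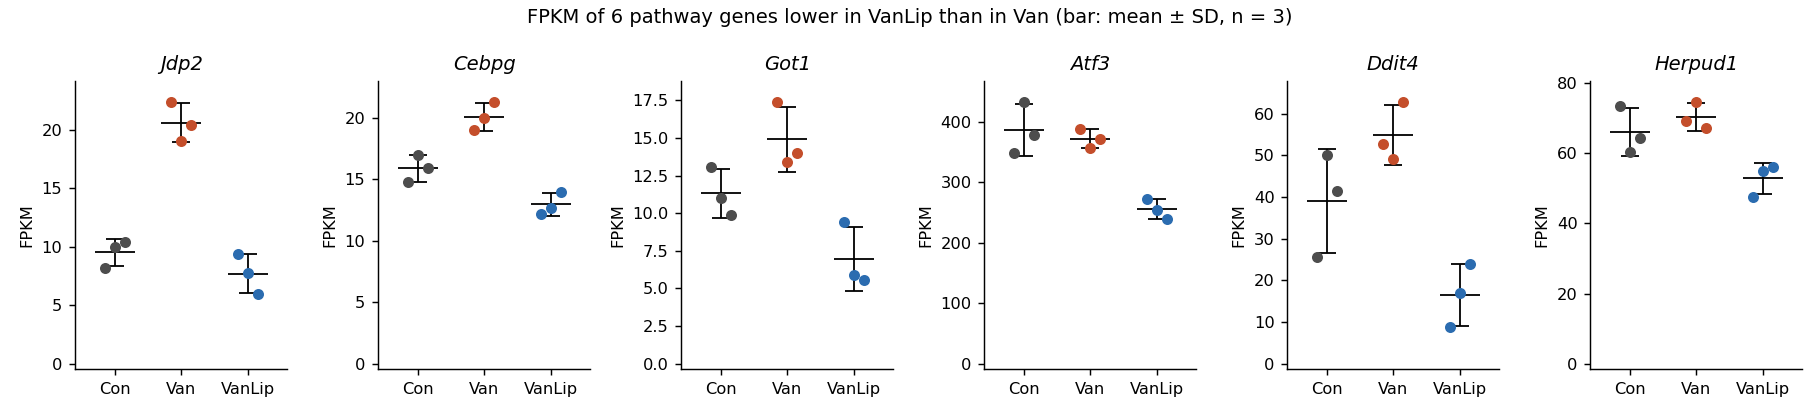
FPKM of 6 pathway genes that were lower in VanLip than in Van, in each of the 9 libraries on linear axes, with 1 dot per mouse and a bar and whiskers for the mean ± SD of each group (n = 3). Jdp2 lies at 19.1 to 22.4 FPKM in Van and at 10.4 or below in Con and VanLip, whereas Atf3 is lower in VanLip, at 239.6 to 273, than in both other groups.

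Of the IRE1 and ATF6 arms, 5 of 21 genes were higher in Van/Con, or 23.8% beside 2.27% of all genes. A log2 fold change above 0 was found for 18 of 21, with a median of 0.19 beside -0.01 over all genes. The sensor genes Ern1 and Atf6 were not called, and their FPKM lay lower in Van without overlap. Ern1 measured 19.6, 26.2 and 23.3 FPKM in Con and 18.1, 17.8 and 15.8 in Van. Atf6 measured 35, 29.3 and 27.5 FPKM in Con and 26.1, 27 and 25.7 in Van. Hsp90b1, the endoplasmic reticulum chaperone GRP94, measured 131, 118 and 134 FPKM in Con and 152, 184 and 159 in Van, a change of 0.36 ± 0.09 (adjusted p of 0.0056). Pdia6, a disulfide isomerase gene, measured 51.7, 46.2 and 52.5 FPKM in Con and 57.6, 76.3 and 69.5 in Van, a change of 0.43 ± 0.12 (adjusted p of 0.0124). Every Van mouse lay above every Con mouse for both chaperones. In VanLip/Van 4 of the 21 genes were lower, or 19% beside 5.27% of all genes. Herpud1, which acts in the disposal of misfolded protein, measured 69.2, 74.6 and 67.1 FPKM in Van and 47.6, 54.8 and 56 in VanLip, a change of -0.40 ± 0.09 (adjusted p of 0.000509). It was also lower in VanLip/Con, at -0.32 ± 0.09 and an adjusted p of 0.0145. Xbp1, whose product drives many of these genes, was not called in these comparisons, with the values given above.

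The counts of pathway genes depended on the test and the mice. In Van/Con, leaving out Con replicate 2 gave 3 genes, leaving out Van replicate 2 gave 4 and leaving out Van replicate 3 gave 5, while edgeR called 2 and limma 0 to 1. For VanLip/Con the count was 4 without Con replicate 1, 2 without VanLip replicate 2 and 11 without VanLip replicate 3, and edgeR and limma called 1 each. The VanLip/Van count stayed at 11 to 16 whichever mouse was left out, with 9 in edgeR and 3 to 8 in limma.

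Other gene groups moved with these results. The heat shock list is made up of genes that mostly answer to HSF1. In Van/Con 7 of its 10 genes were called higher in DESeq2, beside 2.27% of all genes. They were led by Dnaja1 (0.67 ± 0.06, adjusted p of 4.95e-30), Hsph1 (1.75 ± 0.15, adjusted p of 1.77e-26) and Hspa8 (0.60 ± 0.07, adjusted p of 2.41e-14). In VanLip/Van 9 of 10 were lower, beside 5.27% of all genes. The list also holds the mitochondrial chaperone genes Hspd1 and Hspe1, which are known to respond to CHOP and ATF5 in mitochondrial stress and were among those called in both of these comparisons. Summed over the list, the level was 762 to 899 FPKM in Con, 1217 to 1301 in Van and 616 to 705 in VanLip. Hspa1a, an inducible chaperone gene with a near-identical copy in Hspa1b, measured 48.4, 24.9 and 75.3 FPKM in Con, 50.4, 54.8 and 54.8 in Van, and 2.77, 6.37 and 4.53 in VanLip. Its change in VanLip/Con was -3.46 ± 0.43, with an adjusted p of 4.08e-13. The 3 heat shock genes named for Van/Con were picked by lowest adjusted p. In the fit of all 9 libraries their log2 fold changes were above those of the 9 testable stress response genes. Trib3, at 0.48 there, ran from 0.07 to 1.18 when each library was left out in turn. The part of the heat shock genes in the pathway results was not tested.

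The immediate early list, whose genes respond to cell handling among other stimuli, held no call from DESeq2 in Van/Con among its 11 genes, where 1 reached an unadjusted p under 0.05. In VanLip/Con, 2 of 11 were lower, beside 3.69% of all genes. They were Egr1 (-0.59 ± 0.18, adjusted p of 0.0232 in DESeq2) and Btg2 (-0.34 ± 0.10, adjusted p of 0.023). In VanLip/Van, Fosb (-0.45 ± 0.10, adjusted p of 0.000355) and Jun (-0.54 ± 0.14, adjusted p of 0.00313) were lower, beside 5.27% of all genes. Junb (0.33 ± 0.11, adjusted p of 0.0283) was higher there, beside 4.58%. Summed over the list, the level was 4635 to 6291 FPKM in Con, 5096 to 5563 in Van and 4663 to 5412 in VanLip, so the groups overlapped. Of these genes Junb fell under the naming rule and the others were chosen after their values were seen. Their part in the results was not tested.

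Markers of other cells moved as well. The 5 erythroid markers summed to 56.9 to 115 FPKM in Con, 189 to 430.1 in Van and 155 to 640.4 in VanLip. Of these, 3 of 5 were called higher in Van/Con, beside 2.27% of all genes, and 5 of 5 in VanLip/Con, beside 2.98%. Their median log2 fold changes were 1.76 and 2.61. The 6 red pulp macrophage markers summed to 655 to 796 FPKM in Con, 831 to 1057 in Van and 644 to 892 in VanLip, and Vcam1 of this list was called higher in Van/Con and lower in VanLip/Van. Plasma cells, which carry a strong unfolded protein response and much Xbp1, were followed by 6 markers, which summed to 49.5 to 62 FPKM in Con, 40.8 to 49.1 in Van and 41.6 to 64.7 in VanLip. Most of that sum was Jchain, at a mean of 39.6 FPKM. Of the 6, Sdc1 was called lower in Van/Con (-0.71 ± 0.21, adjusted p of 0.0247) and higher in VanLip/Van (0.70 ± 0.21, adjusted p of 0.0144), and Prdm1, which monocytes also express, was called lower in VanLip/Con and VanLip/Van (-0.92 ± 0.17 in each). Of 5 conventional dendritic cell markers, Xcr1 and Clec9a were called lower in Van/Con, Xcr1 and Cd209a lower in VanLip/Con and Clec9a higher in VanLip/Van. The list summed to 31.4 to 46.6 FPKM in Con, 30.4 to 39.9 in Van and 24.1 to 37.1 in VanLip. Siglech, of the 4 plasmacytoid dendritic cell markers, was called lower in Van/Con (-0.89 ± 0.29, adjusted p of 0.0475) and higher in VanLip/Van (0.85 ± 0.28, adjusted p of 0.03). Ngp, of the neutrophil markers, was called lower in VanLip/Con, and no B cell, T and NK cell or platelet marker was called by DESeq2, where 1 to 2 of a list reached an unadjusted p under 0.05 in some comparisons. These markers were named after their values were seen. Beside these calls, 2.06% of all genes were called lower in Van/Con, 3.69% in VanLip/Con and 5.27% in VanLip/Van. Those called higher were 2.27%, 2.98% and 4.58%. The part of these cell types in the results was not tested.

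The genes whose levels ran most like Atf4 over the 9 libraries, by Pearson correlation of log2(normalized count + 1) among 13502 genes with a mean of at least 50 normalized counts, included Sstr4 (0.96), Hic2 (0.95), Gpcpd1 (0.95) and Litaf (0.94). Of the other genes of the set, Ddit3 came closest at 0.82, in place 134, followed by Sesn2 at 0.60. Ppp1r15a (-0.43) and Atf5 (-0.50) ran opposite to Atf4. The 9 points share the split of the VanLip libraries in depth and read length, so these coefficients are a description of the libraries.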

How the data were processed

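Splenic monocyte RNA of 9 mice (Con, Van and VanLip, 3 each) was sequenced from stranded poly(A) libraries. As the submitters' notes and the study's methods state, the authors aligned reads with HISAT2 2.2.1 to GRCm38, used SAMtools 1.9 and StringTie 2.1.3 for FPKM, and deposited FPKM per gene and expected counts obtained with tximport. Transcript coverage is turned into counts with a fixed read length (75 bases by default), so longer reads inflate the counts. The annotation release is not given in the sources used here. The study ran DESeq2 1.38.3.

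Here expected counts were rounded and fitted with DESeq2 1.42.0 in R 4.3.3, all 9 libraries together with group as the only term, Wald tests and Benjamini-Hochberg adjustment over all genes tested, at 0.05 or under. Genes that DESeq2 filters out for low counts kept no adjusted p. Alternatives were edgeR 4.0.16 quasi-likelihood, limma 3.58.1 on log2(FPKM + 1) or log2(FPKM + 0.1), TMM sizes, a filter of 10 counts in 3 libraries, 2-group fits, a replicate block, counts converted to fragments, thinned fragments, and leaving out each library. All per-sample columns were used. The fits were tested on simulated data. P-values measure the spread between these mice. An exact permutation test of 3 against 3 cannot go below 0.1 and was not used.

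The 10 genes and all lists were chosen with earlier results of these data known. All 10 were named in every comparison, with up to 6 pathway genes per comparison and direction by adjusted p, and up to 3 of the heat shock and immediate early lists. For Atf4, the rule takes the 5 most alike genes, of which 1 is not reported here.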

Additional observations from a re-analysis of the deposited data

How the results depend on the processing

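Of the 10 genes, those called were Sesn2 in VanLip/Con and VanLip/Van. The number called was 0 in both with edgeR and with each of the 3 limma fits, and leaving out 1 library gave 0 to 1 in both and 0 to 0 in Van/Con. All 10 alternatives other than leaving out a library gave 0 in Van/Con. The cause of the lost calls was not tested.

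Same-numbered mice of different groups deviated from their group means with correlations of -0.06 to 0.12 over 13503 genes, so the numbers were not treated as pairs. With the replicate number as a block, 0 of the 10 genes were called in Van/Con, 1 in VanLip/Con and 0 in VanLip/Van, where Sesn2 had an adjusted p of 0.071, and 12, 6 and 15 pathway genes and 932, 1146 and 1644 of all genes were called.

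Counts of pathway genes in Van/Con, VanLip/Con and VanLip/Van were 2, 1 and 9 with edgeR, 0, 1 and 3 with limma at either pseudocount, and 1, 1 and 8 with limma above a mean FPKM of 1. Leaving out 1 library gave 3 to 13, 2 to 11 and 11 to 16. Counts of all genes were 204, 300 and 855 with edgeR, 92, 237 and 688 with limma at a pseudocount of 1, 17, 168 and 516 at 0.1, and 90, 339 and 829 above a mean FPKM of 1. They ranged over 425 to 913, 606 to 1273 and 1141 to 1666 without 1 library, and thinning to equal fragments gave 731 in VanLip/Con. TMM sizes turned the split of all called genes from 494 higher and 611 lower to 657 and 500 in VanLip/Con, and from 826 and 951 to 1013 and 809 in VanLip/Van.

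None of the called values of the 10 genes changed sign under any alternative. Uncalled values changed sign 25 times. Atf4 in Van/Con went from 0.01 to -0.03 in the limma fits, and Nupr1 in VanLip/Con from -0.02 to 0.00 with TMM sizes and 0.01 with limma. Leaving out 1 library gave ranges across 0 in Van/Con for Atf4 (-0.08 to 0.08), Ddit3 (-0.19 to 0.19), Ppp1r15a (-0.08 to 0.07) and Sesn2 (-0.13 to 0.05), in VanLip/Con for Asns (-0.28 to 0.11), Atf5 (-0.08 to 0.15), Nupr1 (-0.09 to 0.08) and Trib3 (-0.06 to 0.90), and in VanLip/Van for Asns (-0.02 to 0.29) and Trib3 (-0.72 to 0.13). Asns, Trib3 and Chac1 rest on few fragments, and Trib3 also spread widely within groups, which limits what can be said of them.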
